A study of Mus musculus with 912 samples.

Results

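Transcription factors that are used as identity markers of hippocampal neurons were examined in single nuclei of the mouse hippocampus. The set holds 36 genes of the 42772 genes with a value in the count tables, chosen by name with earlier results of these data known, and all 36 are in both the count and the log2(TPM+1) tables. It comprises the sort markers Prox1 and Bcl11b with other zinc finger factors (Bcl11a, Zbtb20, Fezf2), bHLH and E-protein factors (Neurod1, Neurod2, Neurod6, Tcf4, Id2), POU and homeodomain factors (Pou3f1, Pou3f2, Pou3f3, Lhx2, Lhx6, Emx1, Emx2, Dlx1, Dlx2, Dlx6, Meis2, Satb1), nuclear receptors (Nr2f1, Nr2f2, Rora, Rorb), forkhead, RFX, HMG, T-box and ETS factors (Foxp1, Foxp2, Rfx3, Lef1, Sox5, Sox11, Tbr1, Etv1) and the LIM-only cofactors Lmo3 and Lmo4.

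Nuclei came from wild-type female C57BL6 mice aged 7.75 to 9 weeks, each nucleus being its own SmartSeq2 library, a full-length cDNA method without molecular identifiers. In the first experiment, mice stayed in the home cage (HC) or spent 15 min in an unfamiliar environment (NE) and were killed 1 h after it. NEUN+ nuclei, NEUN being a neuronal nuclear protein, were sorted by antibodies to PROX1, CTIP2 (the protein of Bcl11b) and FOS into 4 gates: PROX1+CTIP2+ (DG gate), PROX1−CTIP2+ (CA1 gate), PROX1+CTIP2− (VIP gate) and PROX1−CTIP2−. HC nuclei were FOS−, and the 1 h nuclei were FOS+ or FOS−. Each carries a predicted cell type (DG, CA1, CA3, Sub, VIP, Ivy, Pvalb or Th) that the authors derived from these same nuclei. In the later experiment, PROX1+CTIP2+ARC+ nuclei were sorted without NEUN staining: ARC+FOS− nuclei 4 h (2 mice, 68 nuclei) or 5 h (4 mice, 59 nuclei) after a single exposure to context A, and ARC+FOS+ and ARC+FOS− nuclei 1 h after a second exposure, 4 h after the first, to the same context (A>A, 6 mice and 130 FOS+ nuclei, 6 mice and 129 FOS− nuclei) or to another one (A>C, 2 mice and 48 FOS+ nuclei, 2 mice and 46 FOS− nuclei). ARC and FOS are products of immediate early genes and mark neurons that were recently active.

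The identity of a hippocampal neuron is laid down during development by combinations of transcription factors, and many of these stay on in the adult. PROX1 is needed for the granule cell fate of the dentate gyrus (DG) and is also kept by interneurons born in the caudal ganglionic eminence, such as VIP cells. NEUROD and EMX factors belong to the glutamatergic lineage, DLX factors to the GABAergic one, LHX6 to interneurons of the medial ganglionic eminence, and ZBTB20 to the pyramidal and granule neurons of the hippocampus proper.

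The unit of comparison was the mouse. Of 912 nuclei from 29 mice, 818 passed the authors' thresholds of reads and genes, with 142275 to 5885216 counts per nucleus (median 1254495), and 35 FOS− nuclei of the first experiment with a high Arc level were left out. The labels were checked with markers, as the sum over each list of mean log2(TPM+1) per mouse. Sums of C1ql2, Dsp, Calb1 and Stxbp6 were 14.7 to 20.7 in DG mice of the first experiment and at most 11.7 in any other type, and those of Gad1, Gad2 and Slc32a1 were at least 15.7 in VIP, Ivy and Pvalb mice and at most 4.89 in the others. The Sub list (Fn1 and Nts) was at 3.78 to 8.97 in Sub mice and 4.34 to 5.50 in CA1 mice. The Ivy list (Npy and Nos1) was at 5.25 to 8.48 in Ivy mice and up to 10.8 in VIP mice. The CA1 list, of 3 genes, was at 5.44 to 19.2 in CA1 mice and up to 11.2 in Sub and 9.69 in Pvalb mice. The VIP list (Vip and Calb2) was at 0 to 13.7 in VIP mice and at 5.62 and 10.3 in Th mice. None of these lists separated its type in every mouse. Vip had a count in 100% of Th nuclei at a mean of 3.50 and in 90.9% of VIP nuclei at 8.97. The Th label went with Slc17a6 and Tcf7l2 (15.3 and 16.1) and with a GABAergic sum of 0.362 and 1.81. The 2 VIP-labelled nuclei of 1h mouse 2 held no count of Vip or Calb2, so VIP values are also given without that mouse. A count alone is weak evidence of expression in these libraries: Gad2, a GABAergic gene, had a count in 53.4% of CA1 nuclei at a mean log2(TPM+1) of 0.426 and in 95.5% of VIP nuclei at 6.68.

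The promoters of 5 members show how differently the control regions of this set are built. They are those of Prox1, the sorted granule cell marker, Rfx3, high in DG, Neurod6, a glutamatergic factor close to absent from DG, and Lhx6 and Dlx2, interneuron factors. Each is the 250 bases before the transcription start in RefSeq on GRCm38.p6, read 5′ to 3′ on the strand of the gene, and capitals mark the E-box hexamers CAGATG (also searched as CATCTG, its other strand) and CAGCTG, which bHLH factors such as the NEUROD proteins bind. The windows are chr1:190170828-190171077 for Prox1, chr19:28011167-28011416 for Rfx3, chr6:55681264-55681513 for Neurod6, chr2:36105409-36105658 for Lhx6 and chr2:71546755-71547004 for Dlx2, all on the minus strand and directly before the gene, the Prox1 start of RefSeq lying 113 bases from that of GENCODE.
Prox1: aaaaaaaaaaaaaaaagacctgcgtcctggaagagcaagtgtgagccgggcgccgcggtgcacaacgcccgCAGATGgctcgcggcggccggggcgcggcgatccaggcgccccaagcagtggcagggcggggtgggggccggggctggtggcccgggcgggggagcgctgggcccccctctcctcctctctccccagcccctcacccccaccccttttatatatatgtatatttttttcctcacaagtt
Rfx3: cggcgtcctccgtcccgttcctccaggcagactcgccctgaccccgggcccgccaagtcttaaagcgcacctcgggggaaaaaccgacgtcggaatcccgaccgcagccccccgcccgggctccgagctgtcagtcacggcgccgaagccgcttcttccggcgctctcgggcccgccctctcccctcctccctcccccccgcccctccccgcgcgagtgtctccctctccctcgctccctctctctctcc
Neurod6: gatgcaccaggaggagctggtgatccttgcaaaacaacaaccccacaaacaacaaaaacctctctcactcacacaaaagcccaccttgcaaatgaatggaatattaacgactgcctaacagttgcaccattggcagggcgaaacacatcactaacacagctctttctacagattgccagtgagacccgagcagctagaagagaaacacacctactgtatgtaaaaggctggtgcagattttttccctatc
Lhx6: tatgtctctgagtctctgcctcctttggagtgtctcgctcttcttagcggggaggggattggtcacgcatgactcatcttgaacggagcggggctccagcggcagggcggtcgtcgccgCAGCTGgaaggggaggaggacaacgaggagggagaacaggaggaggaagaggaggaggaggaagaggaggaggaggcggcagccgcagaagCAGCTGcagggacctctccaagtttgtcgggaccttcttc
Dlx2: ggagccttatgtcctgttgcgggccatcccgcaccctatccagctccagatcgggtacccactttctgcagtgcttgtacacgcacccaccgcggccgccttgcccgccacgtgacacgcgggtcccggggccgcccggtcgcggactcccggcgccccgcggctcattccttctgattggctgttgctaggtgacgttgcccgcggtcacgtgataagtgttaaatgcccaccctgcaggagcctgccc
The Rfx3 window was 72.8% G and C with 30 CG dinucleotides and the Neurod6 window 46.0% with 3. The Prox1 (20 CG), Dlx2 (24) and Lhx6 (14) windows lay between them. The hexamers occurred at 1 place in Prox1, at 2 places in Lhx6 and not in the windows of Rfx3, Neurod6 and Dlx2. Of the 32 members with a RefSeq promoter, 5 (15.6%: Prox1, Neurod2, Id2, Lhx6 and Sox11) held one of the hexamers, against 25.3% of 27025 promoters of the same length. Members were given the RefSeq promoter nearest the GENCODE start, whereas the 27025 are the first one listed for each gene. For Sox5 and Zbtb20 that nearest promoter lay 834871 and 371403 bases from the GENCODE start. Members were richer in CG dinucleotides than promoters as a whole, with a median of 15.5 (1 to 44) against 6, and in G and C, with 61.4% against 52%. These are counts of letters and say nothing of whether a factor binds.

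Across predicted cell types of the first experiment, most members were graded rather than all-or-none. All values here are mean log2(TPM+1) over the nuclei of a mouse, then mean ± SD over mice (DG n = 3, CA1 n = 6, CA3 n = 3, Sub n = 5, VIP n = 5, Pvalb n = 3, Ivy and Th n = 2 each), and shares are of nuclei with a count, averaged over mice in the same way. Because the types were predicted from these nuclei, levels by type are a description and were not tested. Among the 5 larger types, Sub had the highest mean for 10 members, VIP for 9, DG and CA3 for 6 each and CA1 for 5. For 4 of the 36, every mouse of the highest type lay above every mouse of the other 4 larger types: Zbtb20 in CA3, Rfx3 and Emx2 in DG and Dlx1 in VIP. The share of all genes for which this holds was not counted. More than 50% of the nuclei, on average over mice, had a count of 15 members in DG, 19 in CA1, 19 in CA3, 20 in Sub and 12 in VIP, and under 10% had a count of 7, 4, 4, 3 and 6 members. The highest type was the same for 28 members with FOS− nuclei alone, for 28 with medians over nuclei and for 34 without the VIP-labelled nuclei of 1h mouse 2. It was the same for 25 when ranked by the share of nuclei with a count. Ranked by the share above a log2(TPM+1) of 1, it was also the same for 25.

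**Figure D1:**
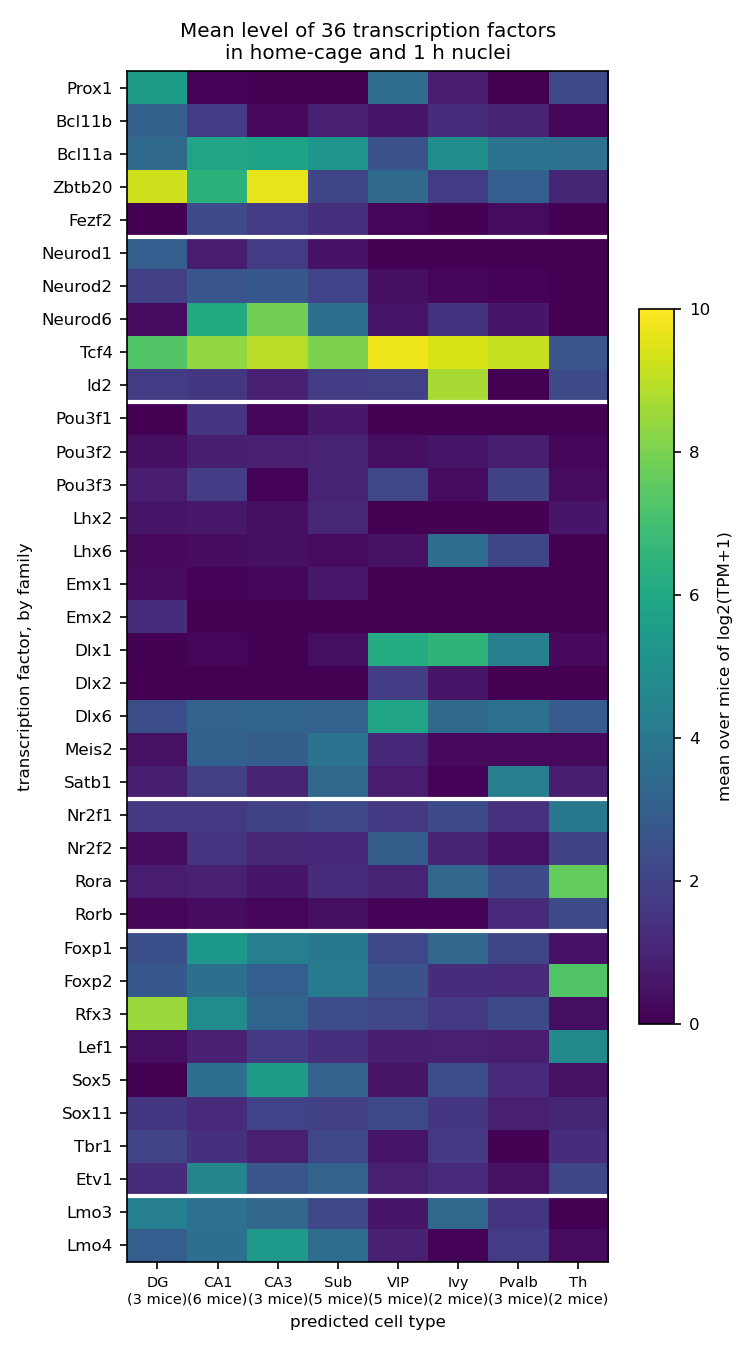
Mean log2(TPM+1) of the 36 members (rows, grouped by factor family) in each predicted cell type of the first experiment (columns), averaged over mice with 2 or more nuclei of that type. Rfx3 (8.49) and Prox1 (5.48) stood highest in DG, Zbtb20 in CA3 (9.68) and DG (9.28), Neurod6 in CA3 (7.86) and CA1 (6.07), Dlx1 in Ivy (6.49) and VIP (6.14), Id2 in Ivy (8.68) and Rora (7.65) and Foxp2 (7.27) in Th.

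Prox1 was read in every DG nucleus, with levels of 5.81, 5.18 and 5.45 in the 3 DG mice. In VIP mice it was 0, 4.63, 4.33, 3.62 and 5.31, the 0 being 1h mouse 2, whose 2 VIP-labelled nuclei were sorted as PROX1−CTIP2+. The ranges of DG and VIP overlapped, as the VIP mouse at 5.31 lay above the DG mouse at 5.18. By the sort, 76 DG nuclei came from the PROX1+CTIP2+ gate and 61 VIP nuclei from the PROX1+CTIP2− gate. All CA1 and CA3 nuclei used here came from PROX1− gates. The part that the sort has in these levels was not tested. Without 1h mouse 2 the VIP level of Prox1 was 4.47 ± 0.70 (n = 4) and 80.6% of nuclei had a count. It was counted in 1 of 73 CA1 nuclei, and in 0 of 26 CA3 nuclei, which allows a share of up to 11.5%. Prox1 shares 133 exonic bases, 1.59% of its own, with the antisense gene Prox1os. Reads in that stretch cannot be assigned to either gene, because the kit does not mark the strand.

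Bcl11b, which encodes CTIP2 and is used in sorting CA1 and DG neurons, stood at 3.05 ± 1.29 in DG (79% of nuclei) and 1.78 ± 1.04 in CA1 (64%). Of the CA1 nuclei, 49 were sorted as CTIP2+ and 24 as CTIP2−, whereas 76 DG nuclei came from the PROX1+CTIP2+ gate. The part that this sort has in the Bcl11b levels was not tested. In the DG mice Bcl11b was at 1.57, 3.81 and 3.78, so the lowest DG mouse lay within the CA1 range of 0.140 to 2.70. Its paralogue Bcl11a (CTIP1) had the other order, with 5.85 ± 0.84 in CA1, 5.81 ± 0.71 in CA3, 5.27 ± 1.59 in Sub, 3.46 ± 1.54 in DG and 2.48 ± 1.43 in VIP. The first 3 of these do not differ beyond their spread.

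Zbtb20, a zinc finger repressor of the developing hippocampus, had a count in every DG, CA1 and CA3 nucleus. The 3 CA3 mice were at 9.47, 9.65 and 9.90 and the 3 DG mice at 9.39, 9.12 and 9.33, close to each other without overlap. CA1 mice ranged from 3.87 to 8.02 and Sub mice from 1.37 to 2.74, so the CA1 and Sub ranges were also apart. A count was still present in 97.5% of Sub nuclei, at a mean level of 2.08, so the level and not the presence of counts separated these types. Fezf2, a factor of deep-layer projection neurons, was at 2.27 ± 1.54 in CA1 (50.4% of nuclei), 1.73 ± 1.85 in CA3 and 1.38 ± 0.82 in Sub, and at 0.0336 in DG.

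Among the bHLH factors, Neurod6 and Neurod1 ran in opposite directions between pyramidal and granule neurons. Neurod6 was at 7.94, 7.57 and 8.07 in the CA3 mice and between 4.32 and 7.88 in the CA1 mice. In DG it was at 0.367, 0.465 and 0, with a count in 8.11% of nuclei on average. Neurod1, which promotes the survival and maturation of granule neurons, was at 2.89, 2.86 and 3.25 in DG, at 2.06, 0.279 and 2.93 in CA3 and at no more than 1.64 in any CA1 mouse. Neurod2 differed little among glutamatergic types (1.89 ± 0.63 in DG, 2.63 ± 0.57 in CA1, 2.75 ± 0.76 in CA3, 2.00 ± 0.74 in Sub) and stood at 0.421 ± 0.425 in VIP. Counted nucleus by nucleus, Neurod2 and Neurod6 were both present in 44 of 73 CA1 nuclei but in 5 of 78 DG nuclei, where 34 held Neurod2 alone.

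Tcf4, the E-protein that pairs with many bHLH factors, was high nearly everywhere: 9.74 ± 0.28 in VIP, 8.95 ± 0.58 in CA3, 8.38 ± 0.64 in CA1, 8.01 ± 1.35 in Sub and 7.28 ± 0.99 in DG. Only Th, at 3.77 and 1.54, stood below 6. Id2, which blocks E-proteins by pairing with them without binding DNA, was the reverse in breadth. It was at 9.34 and 8.02 in the 2 Ivy mice with a count in all nuclei, at most 3.85 in any mouse of another type and 0 in the 3 Pvalb mice.

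Of the DLX genes, which drive and maintain GABAergic fate, Dlx1 separated the GABAergic from the glutamatergic types in every mouse, and Dlx2 and Dlx6 did not. Dlx1 was at 7.86, 6.33, 4.44, 6.77 and 5.29 in VIP mice, at 6.58 and 6.41 in Ivy mice and at 2.56, 5.82 and 4.75 in Pvalb mice. No mouse of a glutamatergic type exceeded 1.65. Dlx2, its neighbour on chromosome 2 (Dlx1 at 71528113 to 71533981, Dlx2 at 71543408 to 71546754, GRCm38), had a count in 30 of 66 VIP nuclei, 2 of 12 Ivy nuclei and 0 of 8 Pvalb nuclei, and 1 VIP mouse was at 0. It had none in 73 CA1, 26 CA3, 33 Sub and 78 DG nuclei, which allows shares of up to 4.11%, 11.5%, 9.09% and 3.85%. Dlx6 did not follow them in breadth, with counts in 72 of 73 CA1, 26 of 26 CA3 and 72 of 78 DG nuclei at levels of 3.14 ± 0.07, 3.24 ± 0.67 and 2.40 ± 0.71, below its 5.85 ± 2.37 in VIP. The lowest VIP mouse, at 2.46, lay under the highest Sub mouse, at 4.04. Part of the exons of Dlx1 (335 bases, Dlx1as) and of Dlx6 (104 bases, Dlx6os2) overlap antisense genes, and reads there cannot be assigned to a strand. Dlx6os2 itself had a count in 18.2% of VIP nuclei and at most 1.37% of nuclei of the glutamatergic types DG, CA1, CA3 and Sub.

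Lhx6, the marker of interneurons of the medial ganglionic eminence, was at 4.11 and 3.02 in Ivy and 1.68, 3.59 and 1.02 in Pvalb mice. All other types were at or below 0.971 in every mouse. Dlx1 and Lhx6 were both present in 10 of 12 Ivy nuclei, whereas in VIP 18 of 66 nuclei held both and 39 held Dlx1 alone. Nr2f2, a nuclear receptor of caudal ganglionic eminence cells, was highest among the larger types in VIP, at 2.97 ± 1.40 (1.08, 3.76, 1.86, 3.98 and 4.17), a range that the CA1 mice (0.151 to 3.24) overlapped. Prox1 and Nr2f2 were both present in 32 of 66 VIP nuclei. Its paralogue Nr2f1 varied little among the larger types (1.64 to 2.18).

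Other homeodomain factors marked glutamatergic subtypes weakly. Pou3f1, a POU factor of projection neurons, had a count in 37 of 73 CA1 nuclei, 7 of 33 Sub nuclei, 3 of 26 CA3 nuclei, 1 of 66 VIP nuclei and 0 of 78 DG nuclei, which allows a share of up to 3.85% in DG. In CA1 mice it ran from 0 to 4.24, so the CA1 mean of 1.56 ± 1.49 is poorly fixed. Pou3f2 stayed at or below 1.51 in every mouse, and Pou3f3 was at 2.12 ± 1.21 in VIP and 1.80 ± 0.94 in CA1. Meis2, a TALE cofactor, was at 3.80 ± 1.66 in Sub, 3.09 ± 1.09 in CA1, 2.93 ± 0.65 in CA3 and 0.465 ± 0.244 in DG. Satb1, a chromatin organiser, was at 6.90, 1.79 and 4.15 in Pvalb and 3.35 ± 0.66 in Sub. Emx2, a patterning gene of the medial pallium, was at 0.374, 0.396 and 3.10 in DG and at most 0.158 elsewhere, so its DG mean of 1.29 rests on HC mouse 7, of 5 nuclei. Emx1 (at most 0.654) and Lhx2 (at most 1.07) were low in every type.

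Of the remaining families, Rfx3, a regulator of ciliary genes, had a high and tight granule cell level: 8.40, 8.67 and 8.40 in the DG mice, with a count in every nucleus. CA1 mice followed at 4.63, 3.71, 4.36, 4.57, 4.22 and 7.36, and CA3, Sub and VIP averaged 3.22, 2.37 and 2.14. The CA1 value of 7.36 came from the 3 nuclei of HC mouse 8. Sox5, an HMG factor of projection neurons, ran against it, at 0.0996, 0.0695 and 0 in DG, 5.50 ± 1.33 in CA3 and 3.65 ± 2.80 in CA1, where single mice spanned 0.103 to 8.02. Tbr1, a T-box factor of glutamatergic neurons, was at 2.13 ± 1.78 in Sub and 2.07 ± 0.50 in DG, which do not differ beyond their spread. Rora, a retinoid-related orphan receptor, (7.10 and 8.20) and Foxp2, a forkhead repressor, (6.66 and 7.89) were highest in the 2 Th mice, of 2 and 5 nuclei. Lef1, a nuclear effector of Wnt signalling, (4.74 ± 2.94) and Rorb (2.31 ± 2.39) had their highest means there as well. Foxp1, another forkhead repressor, was at 5.34 ± 2.06 and the ETS factor Etv1 at 4.57 ± 1.15 in CA1, and Sox11 was between 1.18 and 2.20 in the 5 larger types. Of the LIM-only proteins, which bridge other factors and do not bind DNA, Lmo4 was at 5.42 ± 0.43 in CA3 against 0.923 ± 0.684 in VIP. Lmo3 was highest in DG (4.31 ± 1.30) among the larger types, within the spread of CA1 (3.75 ± 1.37).

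Prox1 and Bcl11b allow the stained protein and its mRNA to be set side by side. In the first experiment Prox1 had a count in 76 of 76 nuclei of the DG gate (100%, exact 95% interval 95.3 to 100%) and in 61 of 79 of the VIP gate (77.2%, 66.4 to 85.9%), both sorted as PROX1+. It had a count in 1 of 60 nuclei of the CA1 gate (1.67%) and 2 of 88 PROX1−CTIP2− nuclei (2.27%), so the PROX1− gates were close to free of it. Bcl11b was less clear-cut. It had a count in 54 of 76 nuclei of the DG gate (71.1%, 59.5 to 80.9%) and 49 of 60 of the CA1 gate (81.7%, 69.6 to 90.5%), both CTIP2+, but also in 18 of 79 of the VIP gate (22.8%) and 44 of 88 PROX1−CTIP2− nuclei (50.0%, 39.1 to 60.9%). In the later experiment, in which all nuclei were PROX1+CTIP2+, 460 of 480 (95.8%, 93.6 to 97.4%) had a count of Prox1 and 273 of 480 (56.9%, 52.3 to 61.4%) of Bcl11b. These intervals cover counting error alone, since nuclei of a mouse share their source. In DG nuclei of the first experiment, 55 of 78 held both mRNAs and 23 Prox1 alone.

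**Figure D2:**
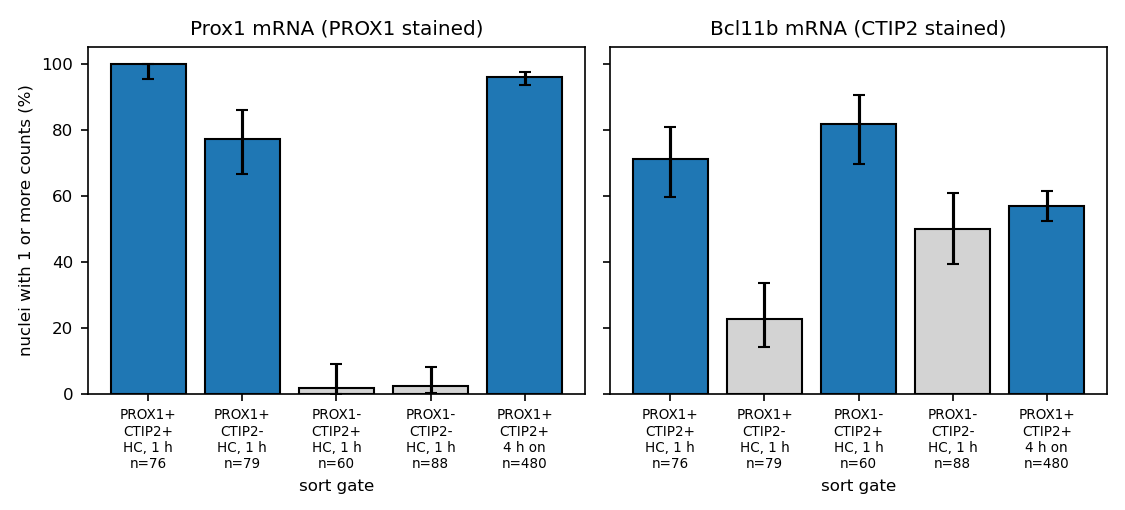
Share of nuclei with a count of Prox1 and of Bcl11b (y axis, percent) in each sort gate of the first experiment and in the later DG nuclei, with exact 95% binomial intervals as error bars. Prox1 reached 100% and 77.2% in the PROX1+ gates and 1.67% and 2.27% in the PROX1− gates, whereas Bcl11b stood at 50.0% in the PROX1−CTIP2− gate.

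The gates, set by protein and not by RNA, give a test of cell identity that does not reuse the predicted types. Counts of FOS− nuclei were summed per mouse in each gate and compared with edgeR over 19259 genes, with all 4 gates in one fit. Over all FOS states, the DG gate (1h mouse 3, HC mice 6 and 7) held 76 DG nuclei, the CA1 gate (1h mouse 2, HC mouse 3) mostly CA1 and some Sub nuclei, and the VIP gate (1h mice 4 and 5, HC mice 4 and 5) mostly VIP nuclei with Ivy and Th nuclei. Mouse and date label differ between these 3 gates throughout, so gate and date label cannot be told apart. Prox1 and Bcl11b encode the stained proteins, so their values are only described and the members are counted without them, as 34. Where a group sum is all 0, no fold is given. The summed counts alone do not tell fewer nuclei of a type from less RNA per nucleus. Shares and levels of single nuclei by predicted type are given above.

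Between the DG and CA1 gates, 2 of 34 members passed the test, Rfx3 and Sox5, against 0.208% of all genes (40 of 19259). Rfx3 stood at 1343, 1357 and 2536 CPM (counts scaled to a common library total) in the DG gate and 120.4 and 204.4 in the CA1 gate, without overlap, a log2 difference of 3.43 ± 0.59 (SE, edgeR adjusted p = 0.0472). Sox5 was at 0.216, 0.319 and 0 CPM against 79.8 and 18.8, a log2 difference of −7.83 ± 1.29 (adjusted p = 0.0400). Prox1 was at 338, 531 and 879 CPM against 0 and 0.0627. Bcl11b, CTIP2+ in both gates, was at 117, 185 and 102 against 48.3 and 94.2.

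Several further members had wide gaps in CPM that did not pass the adjusted test. Neurod6 was at 5.65, 17.1 and 0 in the DG gate against 406 and 589.5 in the CA1 gate, a log2 difference of −6.01 ± 1.36 (adjusted p = 0.160). Pou3f1 had no count in the DG gate and was at 1.92 and 13.5 CPM in the CA1 gate (adjusted p = 0.137). Meis2 was at 0.703, 6.59 and 1.05 against 79.3 and 107 (adjusted p = 0.431). Without regard to any test, the mice of the 2 gates did not overlap for 20 of 34 members (58.8%), 8 higher and 12 lower in DG, against 25.3% of all genes tested. That share is not matched on level, and many of the other genes are low and tied at 0. The median log2 difference of the members was 0.07, against 0 over all genes, and its sign was not fixed, since it was −0.36 with the nuclei of high Arc kept and 0.24 without 1h mouse 2 of the CA1 gate.

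Between the DG and VIP gates, which share PROX1, 4 of 34 members passed, against 1.27% of all genes (245). Rfx3 was at 132.5, 171.1, 63.0 and 49.5 CPM in the VIP gate, so that its DG level was higher by a log2 difference of 4.07 ± 0.45 (adjusted p = 0.00420). Zbtb20 was at 2203, 2571 and 2396 CPM in the DG gate and 77.3, 174.9, 255 and 102.3 in the VIP gate, a difference of 3.97 ± 0.49 (adjusted p = 0.00475). Tbr1 was at 47.9, 47.9 and 45.4 against 0.544, 1.52, 0.579 and 0.438 (5.94 ± 1.26, adjusted p = 0.0464). Sox5 was lower in DG, with 27.9, 4.81, 62.5 and 35.1 CPM in the VIP gate (−7.24 ± 1.22, adjusted p = 0.0167). Prox1 overlapped between these gates, at 320, 40.2, 382 and 329 CPM in the VIP gate.

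The interneuron factors fell just short of the threshold or below it. Dlx1 was at 0.189, 0.0531 and 0 CPM in the DG gate and 170.0, 82.5, 329 and 62.2 in the VIP gate (adjusted p = 0.0960). Dlx2 had no count in the DG gate and was at 5.84, 5.57, 26.0 and 40.5 in the VIP gate (adjusted p = 0.0726). Neurod2 was at 83.4, 55.0 and 68.7 against 2.45, 0.506, 5.09 and 8.55 (adjusted p = 0.0507). The 2 gates did not overlap for 17 of 34 members (50%), 8 higher and 9 lower in DG, against 15.1% of all genes. The median log2 difference was −0.0514 in the members and −0.103 over all genes, and that of the members ran from −0.40 without HC mouse 6 of the DG gate to 0.15 without HC mouse 4 of the VIP gate.

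Between the CA1 and VIP gates only Zbtb20 passed (1 of 34, against 0.109% of all genes, 21), at 1201 and 1948 CPM in the CA1 gate, a log2 difference of 3.37 ± 0.50 (adjusted p = 0.0347). The gates did not overlap for 16 members (47.1%), 10 higher and 6 lower in CA1, against 16.9% of all genes. The median log2 difference was 0.620 in the members and −0.0565 over all genes, and that of the members fell to 0.12 without HC mouse 3 of the CA1 gate. Neurod6 (406 and 589.5 against 5.03, 41.2, 19.1 and 11.2 CPM, adjusted p = 0.189) and Neurod2 (45.5 and 79.8, adjusted p = 0.167) were among those higher, and Dlx2, Id2 and Lhx6 among those lower. At an unadjusted p under 0.05 the members counted 10 (29.4%, against 9.10% of all genes) between DG and CA1, 18 (52.9% against 16.9%) between DG and VIP and 13 (38.2% against 9.08%) between CA1 and VIP. The number called turned strongly on the tool: DESeq2 called 8, 15 and 11 members in the 3 comparisons, beside 5.12%, 11.1% and 4.83% of all genes, and limma on mean log2(TPM+1) called 4, 9 and 9, beside 1.44%, 4.98% and 1.96%. With DESeq2 size factors in edgeR, Sox5 alone was called between DG and CA1. Leaving out single mice took the DG against CA1 count to 0 each time, left 2 to 3 of DG against VIP, Rfx3 and Zbtb20 among them each time, and took CA1 against VIP to 0 in 5 of 6 cases.

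**Figure D3:**
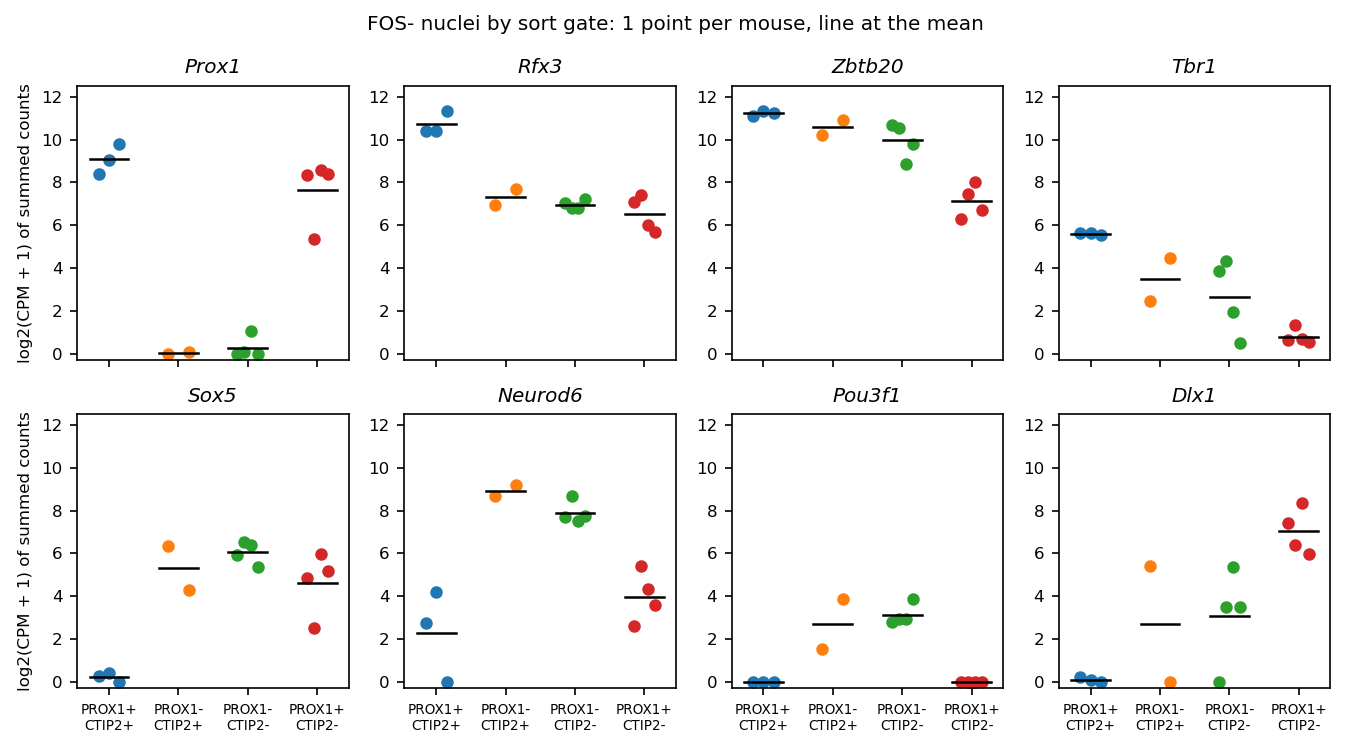
Level of 8 members in the 4 sort gates (x axis) as log2(CPM+1) of the summed FOS− nuclei (y axis), 1 point per mouse, with a line at the gate mean. Rfx3 and Tbr1 stood higher and Sox5 lower in all 3 mice of the DG gate than in any mouse of the CA1 and VIP gates, Neurod6 was at 184 to 590 CPM in the PROX1− gates and at most 41.3 in the others, and Dlx1 was highest in the VIP gate.

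A second list, of 38 other forebrain transcription factors, served as a comparison, and 35 of them could be tested between gates. Nfia (log2 difference 8.86, adjusted p = 0.00499) and St18 (5.19, adjusted p = 0.0256) were higher in the DG than in the VIP gate, and Nfia also in the CA1 than in the VIP gate (7.41, adjusted p = 0.0372). None passed between DG and CA1, and none passed in any comparison of exposure or FOS described next.

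Exposure and FOS were then compared within each cell type, to ask whether the identity factors hold their level in nuclei that respond to the NE. In CA1, 0 of 30 testable members passed between FOS+ and FOS− nuclei (3 mice each) or between FOS− nuclei and HC (3 mice each), as did 0% of the 14507 genes in either. The count at an unadjusted p under 0.05 was 2 members in each (629 and 730 genes), and DESeq2 called 0 and 2, with 218 and 243 genes. The 2 were Lmo4, a LIM-only cofactor, and Rora. Lmo4 was at 146, 139.7 and 174 CPM in the FOS− nuclei and 29.7, 33.4 and 16.9 in HC, without overlap (log2 difference 2.52 ± 0.73, edgeR adjusted p = 0.940), and at 304, 64.1 and 140.3 in the FOS+ nuclei. Rora was at 0, 0.42 and 0.29 CPM in FOS− nuclei and 1.90, 74.4 and 86.1 in HC. Zbtb20, Bcl11a and Neurod6 were high in CA1 but not in CA1 alone. Between FOS+ and FOS−, Zbtb20 differed by −0.10 ± 0.54, Bcl11a by −0.34 ± 0.49 and Neurod6 by 0.49 ± 0.88, each smaller than its standard error. On the log2(TPM+1) scale, Bcl11a was lower in the FOS+ nuclei of all 3 mice (4.91, 5.28 and 6.23 against 6.81, 5.59 and 7.24). Zbtb20 and Neurod6 did not keep the same direction across these mice. The median log2 difference of the members was 0.46 in CA1 FOS+ against FOS−, with −0.009 over all genes. That of the members ran from 0.143 without mouse 2 of the FOS+ nuclei to 0.896 without mouse 2 of the FOS− nuclei, and limma gave 0.0867.

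VIP, Sub and CA3 gave the same count. In VIP, 0 of 27 members passed for FOS+ against FOS− and for FOS− against HC (0% of 15002 genes in both). The unadjusted count was 0 and 1, the 1 being Sox5, beside 5.67% and 4.97% of all genes. DESeq2 called 0 and 1, the 1 being Etv1, beside 2.87% and 2.46%. In Sub 0 of 31 members passed in either comparison (0% of 14071 genes), with an unadjusted count of 1 and 0 (6.71% and 4.37% of all genes) and a DESeq2 count of 1 and 0 (2.97% and 1.98%). Each time the 1 was Pou3f1, which was at 0, 0.13 and 0 CPM in FOS+ and 9.02, 0.93 and 41.3 in FOS− nuclei. In CA3, FOS+ against FOS− was compared in 2 mice, and 0 of 30 members passed (0% of 17179 genes), with an unadjusted count of 2 (4.00% of all genes) and a DESeq2 count of 0 (2.55%). Foxp1 was at 237 and 155.3 CPM in the FOS+ nuclei and 63.7 and 42.5 in the FOS− nuclei of the same mice (log2 difference 1.88, adjusted p = 0.798), and Fezf2 had no count in the FOS− nuclei of either. limma called 0 members and 0 genes in each of these 7 comparisons. Over all fits the common dispersion between sums of mice was 1.49 to 2.19.

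For DG, all groups of both experiments were fitted together (24405 genes, 35 members, Dlx2 failing the filter). The 1 h groups both come from 1h mouse 3, so their tests assume that it varies like the other DG mice. Prox1 was at 873 CPM in its FOS+ and 274 in its FOS− nuclei, against 425 and 687 in the HC mice (FOS+ against FOS− 1.67 ± 0.76, adjusted p = 1). None of the 35 passed, against 0.0451% of all genes (11), and 3 had an unadjusted p under 0.05 (Prox1, Emx1 and Satb1), which is 8.57% against 3.02% of all genes. Satb1 had no count in the FOS+ nuclei, and DESeq2 called Satb1 alone, beside 3.70% of all genes. Between FOS− nuclei and HC none passed (0.00410% of all genes, 1 gene), with 1 at an unadjusted p under 0.05, Emx1 (2.86% against 2.80% of all genes), the member DESeq2 called beside 3.24% of all genes. limma called 0 in both, beside 2.07% and 1.70%.

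On the log2(TPM+1) scale, the FOS+ nuclei of that mouse stood below its FOS− nuclei and HC for some factors and above them for others. Tcf4 was at 4.46 in FOS+, 7.76 in FOS− and 7.92 and 7.77 in HC nuclei. Bcl11b was at 0.587 against 2.51, 3.81 and 3.78, and Bcl11a at 0.807 against 2.92, 3.54 and 4.96. Lmo3 (1.91 against 3.89, 4.52 and 5.50), Tbr1 (0.980 against 2.09, 2.10 and 2.55) and Etv1 (0.503 against 2.92, 1.18 and 1.00) ran the same way. Zbtb20 (9.21 against 9.56, 9.12 and 9.33) and Rfx3 (8.29 against 8.50, 8.67 and 8.40) did not. None of these differences passed the test on counts. The DG marker sum of the same nuclei was 8.94 in FOS+, 20.1 in FOS− and 18.5 and 20.7 in HC nuclei, and the part that this has in the values above was not tested.

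The later ARC+ nuclei were set against HC, a comparison in which the sort, the tables and the date differ along with the treatment, so that exposure and experiment cannot be told apart. At 4 h none of 35 members passed (0.246% of all genes, 60), and at 5 h none (0.262%, 64). An unadjusted p under 0.05 was reached by 1 and 7 members, which is 2.86% and 20% of them against 5.58% and 10.3% of all genes. Both comparisons use the same 2 HC mice. Sox11, an HMG factor of immature neurons, was the member with the largest contrast to its spread. It was at 83.7 and 7.15 CPM in HC, at 229.7 and 200.2 at 4 h (log2 difference 2.24 ± 0.82, adjusted p = 0.663) and at 311, 549.9, 132 and 246 at 5 h (2.76 ± 0.79, adjusted p = 0.208). The later mice all lay above HC. Without the HC mouse at 83.7, mouse 6, Sox11 passed at both times (4.91, adjusted p = 0.0198, and 5.43, adjusted p = 0.0100). That fit leaves HC mouse 7, of 5 nuclei, as the only HC sum and assumes that it varies like the other groups. In it 180 and 204 genes passed, and the median log2 difference over all genes moved to 1.26 and 0.80.

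Tcf4 was at 543 and 429.7 CPM in HC, 169 and 341 at 4 h and 239, 250.1, 193 and 129.8 at 5 h (5 h log2 difference −1.26 ± 0.40, adjusted p = 0.275), again without overlap. Mean log2(TPM+1) gave the same order with a wider gap, 7.92 and 7.77 in HC, 3.94 and 5.05 at 4 h and 2.90, 4.69, 4.14 and 3.50 at 5 h. Tbr1 was at 38.3 and 35.6 CPM in HC, 9.20 and 6.40 at 4 h and 0.778, 1.35, 0.563 and 9.96 at 5 h (−3.55 ± 1.49, adjusted p = 0.446). The mice did not overlap for 18 of 35 members at 4 h (51.4%, 8 higher and 10 lower, against 32.4% of all genes) and for 8 at 5 h (22.9%, 2 higher and 6 lower, against 13.2%). The median log2 difference of the members was −0.062 at 4 h, with 0.228 over all genes, and −0.310 at 5 h, with 0 over all genes. With DESeq2 size factors the 4 h median over all genes moved to 0, a shift of 0.228, that of the members to −0.402, and no member was called. The 4 h median of the members was −0.493 without 4 h mouse 17 and 0.0765 without HC mouse 7, so its sign was not fixed. That at 5 h lay between −0.528 with limma and 0 without HC mouse 6.

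The DG markers moved with these values. Their sum was 9.93 and 10.9 in the 4 h mice and 8.26 to 11.3 in the 5 h mice, against 18.5 and 20.7 in HC, and the median depth was 2469299, 426841 and 974503.5 counts per nucleus. Their part in the difference was not tested. DESeq2 called 0 members at 4 h and 3 at 5 h (Lhx2, Sox11, Tcf4), 8.57% of them, beside 5.01% and 8.42% of all genes. limma on mean log2(TPM+1) called 3 at 4 h (Bcl11a, Nr2f1, Tcf4) and 9 at 5 h (those 3 with Bcl11b, Emx2, Lmo3, Pou3f3, Sox11 and Tbr1), 8.57% and 25.7% of them, beside 2.29% and 7.11% of all genes.

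Zbtb20, Rfx3 and Prox1, all high in granule cells, were at or above 7.19, 5.79 and 3.84 in every mouse of every DG group. Tcf4, whose level in DG of the first experiment lay between those of Rfx3 and Prox1, is given above. Zbtb20 had a count in 100% of nuclei of every DG group. Zbtb20 was at 9.12 and 9.33 in HC, 8.42 and 7.86 at 4 h and 7.48, 8.38, 8.06 and 7.19 at 5 h on the log2(TPM+1) scale. In CPM it differed from HC by −0.12 ± 0.37 at 4 h and −0.55 ± 0.31 at 5 h. Rfx3 was at 8.67 and 8.40 in HC, 8.86 and 8.14 at 4 h and 6.69, 7.35, 6.75 and 7.49 at 5 h (−0.34 ± 0.53 and −0.74 ± 0.44 in CPM). Prox1 was at 5.18 and 5.45, then 5.56 and 5.54, then 4.61, 4.09, 4.34 and 4.90 (−0.06 ± 0.53 and −0.48 ± 0.45). The adjusted p of these 6 differences was at least 0.542. Factors of other types were not all low in the later DG nuclei. Dlx2 reached at most 0.0108 and Pou3f1 at most 0.254 in any DG mouse. Neurod6 reached 2.04 in a later mouse against 0.465 in the first experiment, Id2 4.16 against 2.81 and Lmo4, highest in CA3 among the larger types, 6.70 against 4.26. These are the highest of 22 and 4 sums and were not tested.

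**Figure D4:**
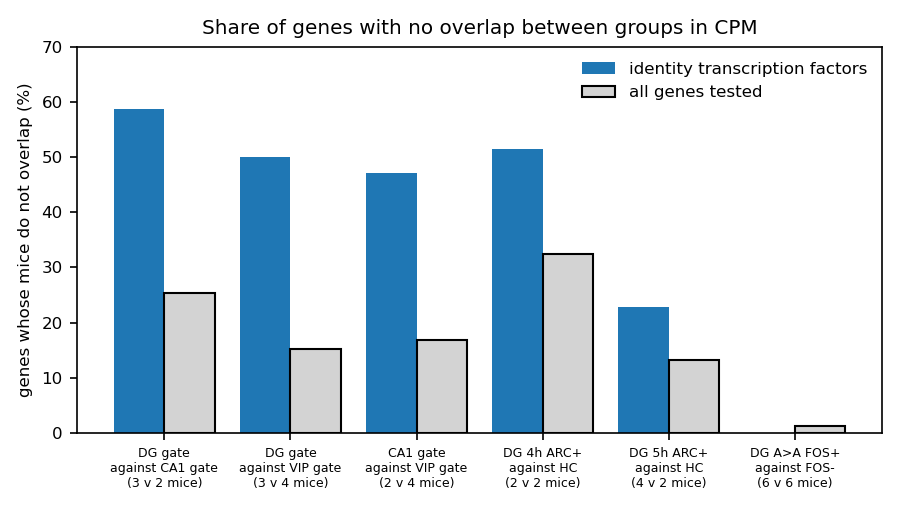
Share (y axis, percent) of the identity factors (blue) and of all genes tested (grey) for which the mice of the 2 groups compared did not overlap in CPM, in 6 comparisons (x axis). Prox1 and Bcl11b are left out between gates. The shares were 58.8% against 25.3%, 50% against 15.1% and 47.1% against 16.9% for the gates, 51.4% against 32.4% at 4 h, 22.9% against 13.2% at 5 h, and 0% against 1.16% for FOS in A>A.

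Re-exposure to the same context gave the best-replicated contrast of FOS, with 6 FOS+ and 6 FOS− groups of nuclei, mice 24 to 27 giving both kinds. The other FOS+ groups came from mice 15 and 16 and the other FOS− groups from mice 19 and 20, with other date labels. Their median depth was 767842.5 and 807527.5 counts per nucleus in FOS+ and 2289894.5 and 2694302.5 in FOS−. In these unpaired mice FOS, date label and depth cannot be told apart. None of 35 members passed, against 0.0410% of all genes (10), and for none did the mice of the 2 kinds fail to overlap, against 1.16% of all genes. An unadjusted p under 0.05 was reached by 4 members (11.4%, against 15.4% of all genes): Emx2, Lmo4, Dlx1 and Meis2, the 4 that DESeq2 called beside 3.64% of all genes. limma called 0, beside 1.00% of all genes.

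Of these 4, Lmo4 was the only one above a few CPM in most mice. Its FOS− values were 274, 319.6, 116, 153, 113 and 100.1 CPM (mice 19, 20 and 24 to 27) and its FOS+ values 92.8, 100.3, 17.2, 34.7, 85.8 and 66.7 (mice 15, 16 and 24 to 27), a log2 difference of −1.44 ± 0.43 (edgeR adjusted p = 0.248). In each of the 4 mice with both kinds the FOS+ value was the lower one. In A>C it was at 179.8 and 209 in FOS− and 57.8 and 42.1 in FOS+ nuclei (−1.96 ± 0.75, adjusted p = 0.899), and in 1h mouse 3 at 108 and 33.0 (−1.71 ± 1.06, adjusted p = 1). In CA1 it differed between FOS+ and FOS− by 0.14 ± 0.68, and whether CA1 and DG differ in this was not tested. With the mouse as a replicate block, the count of members called in A>A stayed at 0. The marker sum of A>A nuclei was 6.61 to 11.5 in FOS+ and 8.78 to 14.5 in FOS−, which overlap.

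Zbtb20, Rfx3 and Prox1 differed between FOS+ and FOS− nuclei of A>A by 0.35 ± 0.21, −0.17 ± 0.30 and 0.30 ± 0.30 in CPM. On the log2(TPM+1) scale, within mice 24 to 27, Prox1 was higher in the FOS+ nuclei of all 4, by 0.57, 1.77, 0.38 and 1.19. Neurod1 and Dlx1 were also higher in all 4, and Lmo4, Nr2f2 and Satb1 were lower in all 4. These 3 members higher (8.57% of 35) and 3 lower (8.57%) stand beside 5.14% and 10.6% of all genes. Dlx1 reached 7.63 CPM in 1 FOS+ mouse and was at most 0.154 in FOS− mice, levels far under the 62.2 to 329 of the VIP gate. Emx2 was at 0 to 0.505 CPM in FOS+ and 0.0812 to 18.9 in FOS− nuclei.

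In A>C, FOS+ nuclei came from mice 13 and 14 and FOS− nuclei from mice 11 and 12, with other date labels, so FOS and mouse cannot be told apart. None of 35 members passed (0% of all genes), with 3 at an unadjusted p under 0.05 (Zbtb20, Satb1 and Lmo4, 8.57% against 4.46% of all genes), of which DESeq2 called Satb1, beside 5.09% of all genes. Zbtb20 was at 2659 and 2482 CPM in FOS+ against 842 and 1439.8 in FOS− nuclei (1.17 ± 0.37, adjusted p = 0.899). None passed between A>A and A>C for FOS+ nuclei or for FOS− nuclei (0% of all genes in both), with 1 member each at an unadjusted p under 0.05, Satb1 and Emx2 (2.86% each, against 4.94% and 4.88% of all genes). DESeq2 called 2 (Lhx2 and Satb1) and 1 (Emx2), beside 4.89% and 2.61% of all genes, and limma 0 in these 3 comparisons, beside 0.465%, 0.126% and 0.135%. Whether the FOS effect itself differed between A>A and A>C was tested as an interaction, which 0 of 35 members and 0 of 24405 genes passed. At an unadjusted p under 0.05 there were 2 members (Emx2 and Satb1), and the share of all genes there was not counted.

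**Figure D5:**
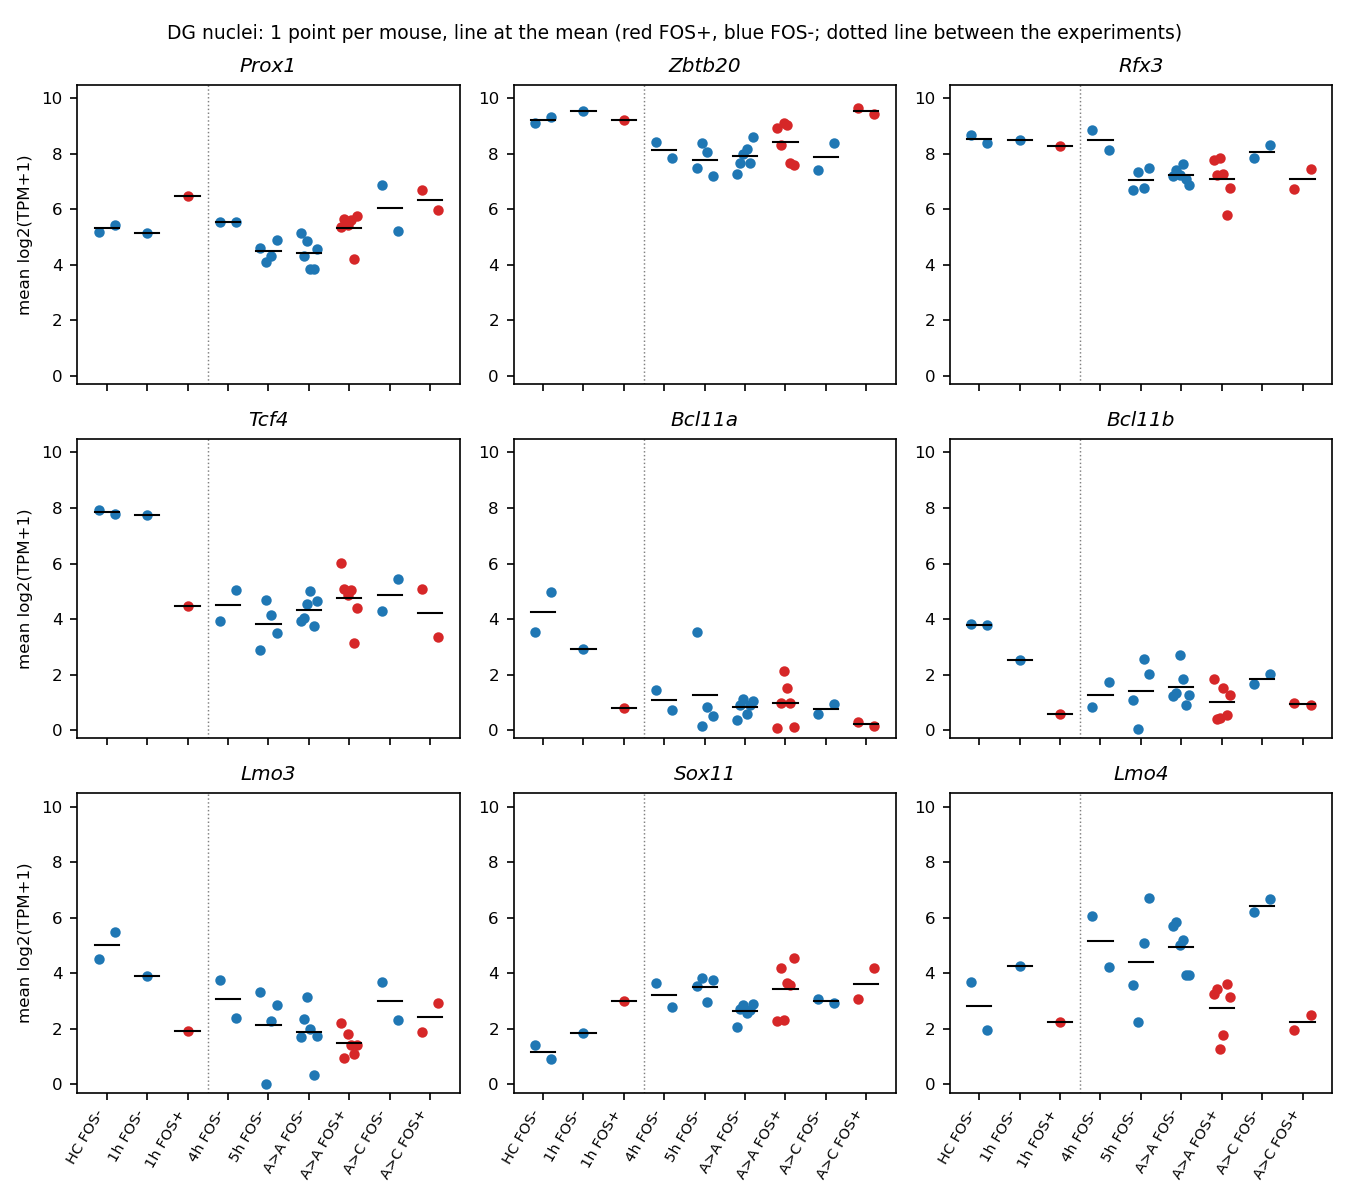
Mean log2(TPM+1) (y axis) of 9 members in the 9 DG groups (x axis), 1 point per mouse, FOS+ groups in red and FOS− groups in blue, with a dotted line between the 2 experiments. Zbtb20, Rfx3 and Prox1 were at or above 3.84 in every mouse, Tcf4 was at 7.76 to 7.92 in HC and 1 h FOS− nuclei and at most 6.01 in the others, Sox11 was lowest in HC, and Lmo4 was lower in the FOS+ than in the FOS− nuclei of each mouse that gave both.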

How the data were processed

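Per the paper's methods, the authors trimmed reads with Solexa-QA++ and quantified them with RSEM and Bowtie against mm10 (GRCm38) with the Ensembl annotation. The release and the tool versions are not given in the sources used here. Estimated counts (RSEM expected counts, all whole numbers) and log2(TPM+1) values were used as deposited by the authors, for 42802 and 40221 genes, of which 30 and 23 hold no value. Each experiment has its own tables. The 36 members and the second list of 38 factors were chosen with earlier results of these data known, and all members are named whatever their values. Leaving Prox1 and Bcl11b out of the counts between gates was decided after the data were seen; Prox1 passed between the DG and CA1 gates.

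Nuclei needed 100000 alignable reads and 4000 genes with a log2(TPM+1) above 1. This left 338 of 360 nuclei of the first and 480 of 552 of the later experiment. FOS− nuclei of HC and 1 h with an Arc level above 2.5, the threshold of the methods, read here on the log2(TPM+1) scale, were left out (35, of which 27 CA1). This removes more CA1 nuclei than the methods give, and keeping them was an alternative. A mouse was an exposure with a mouse number (29, or 33 if the date label is added, an alternative). Counts were summed per mouse and group of at least 2 nuclei and tested by the two-sided quasi-likelihood test of edgeR 4.0.16 (R 4.3.3), after filterByExpr and TMM scaling, with Benjamini-Hochberg adjustment over all genes tested and a threshold of 0.05. Levels and shares were computed in Python 3.11.15 with pandas 2.3.3, numpy 2.4.6 and scipy 1.17.1. Shares carry exact Clopper-Pearson 95% intervals, and a share of 0 allows 3 nuclei of the total. Alternatives were DESeq2 1.42.0, its size factors, limma 3.58.1 on mean log2(TPM+1), other filters, the mouse as a replicate block and each mouse left out. The edgeR step was run on simulated counts with known changes, and the share of changes recovered is not given here. Without that share, 0 members passing cannot be read as no change. Gene positions are those of GENCODE vM21, promoters those of RefSeq. Proteins and nuclei of intermediate FOS staining were not analysed here.

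FOS+ and FOS− sums of the same mouse, paired by the labels, correlated after removal of group means at 0.049 in CA1, 0.015 in VIP, 0.047 in Sub, 0.061 in CA3 and 0.042 in A>A, against −0.024, −0.007, −0.023, −0.061 and −0.005 for other mice.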

Additional observations from a re-analysis of the deposited data

Results flagged for a closer look

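Groups of 4 to 10 mice were screened for 1 mouse far from the others. Of 153 groups 8 were marked, and chance alone marks about 1 in 20. On the log2(TPM+1) scale, Fezf2 (2.80, other mice 0.723 to 1.30) and Lef1 (3.47, others 0.691 to 1.13) were high in Sub in the 8 nuclei of 1h mouse 2. Foxp2 was high in VIP in HC mouse 4 (3.80, others 1.91 to 2.42) and Sox11 in the 2 VIP-labelled nuclei of 1h mouse 2 (3.26, others 1.75 to 2.12). Rfx3 was high in CA1 in HC mouse 8 (7.36, others 3.71 to 4.63), a value from 3 nuclei. Among PROX1−CTIP2− sums, Pou3f3 was high in HC mouse 4 (2.30, others 0.554 to 0.714). In the FOS+ nuclei of A>A, Prox1 was low in mouse 26 (4.23, others 5.36 to 5.75) and Tbr1 low in mouse 25 (0.882, others 1.31 to 1.54).

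The difference between FOS+ and FOS− nuclei ran in opposite directions in CA1 and Sub for 3 members, in each of the 3 mice of either type. Rfx3 was lower in FOS+ nuclei of CA1 and higher in those of Sub, with a mean gap between the types of −3.97 in log2(TPM+1), though in 1 Sub mouse the FOS+ level was higher by only 0.0162. Bcl11a ran the same way, with a gap of −2.32, and Foxp2 the other way, with 1.63, though in the same Sub mouse, 1h mouse 10, Foxp2 differed by only −0.0423. These gaps were not tested, and the share of all genes that run in opposite directions in this way was not counted. The sums per mouse and type hold 2 to 24 nuclei.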

How the results depend on the processing

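The calls of members between gates depended on the tool and on single mice, and the cause was not tested. Between the DG and CA1 gates, where 2 of 34 were called, DESeq2 called 8, DESeq2 size factors in edgeR 1, no filter on low counts 0, limma on mean log2(TPM+1) 4, and leaving out each mouse 0 to 0. Between DG and VIP the 4 became 15 with DESeq2, 9 with limma and 2 to 3 without single mice, of which 1h mouse 3 and HC mouse 6 each took it to 2. Between CA1 and VIP the 1 became 11 with DESeq2, 9 with limma, 0 without the thresholds of reads and genes and 0 to 1 without single mice. The genes called overall went with DESeq2 from 40, 245 and 21 to 987, 2130 and 931, and with limma to 261, 904 and 355.

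For exposure and FOS, 196 of 210 settings gave 0 members. The other 14 were DESeq2 in CA1 FOS− against HC (2), VIP FOS− against HC (1), Sub FOS+ against FOS− (1), DG 1 h FOS+ against FOS− (1), DG 1 h FOS− against HC (1), 5 h against HC (3), A>A (4) and A>C (1) FOS+ against FOS−, FOS+ A>A against A>C (2) and FOS− A>A against A>C (1), limma at 4 h (3) and 5 h (9), and both times without HC mouse 6 (1 each, Sox11), so that leaving out single mice gave 0 to 1 at 4 h and at 5 h. With the mouse as a replicate block the count was 0 in CA1, VIP, Sub, CA3, DG at 1 h and A>A. No paired analysis was possible for A>C because its FOS+ and FOS− nuclei come from different mice. Sums of 5 or more nuclei could not be fitted in Sub. Direction was followed across the alternatives for the members called in the reported edgeR fits and for a few added cases. These were Sox11 and Tcf4 at 4 h and 5 h against HC, Emx2 and Lmo4 in A>A and Lmo4 in A>C. None of these turned its direction, and the other named differences were not followed in this way. The median over the members changed sign under at least 1 alternative in 12 of 18 comparisons. The other 6 were CA1 against VIP, both CA1 comparisons, CA3, 5 h against HC and FOS+ A>A against A>C. Of the alternatives, 223 counts of members stayed within 1.5 times the reported one, against 35 that did not. Of the 223, 196 were the settings of exposure and FOS in which 0 stayed 0. The 223 also hold the counts of members that kept their highest type. The pooled figure is therefore no measure of how stable the calls between gates were.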

Other observations

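Several members share exonic bases with a gene on the other strand, and these partners had their own distribution. Dlx1as was present in 83.3% of VIP and 100% of Ivy nuclei and in 6.85% of CA1 nuclei, an order like that of Dlx1. Prox1os had a count in 20.5% of DG, 13.6% of VIP and 6.85% of CA1 nuclei, far under the shares of Prox1 in DG and VIP. Emx2os was present in 39.7% of DG, 52.1% of CA1 and 61.5% of CA3 nuclei, whereas Emx2 was close to absent outside DG. A830082K12Rik, the partner of Nr2f1, was present in all nuclei of every type of the first experiment. Without strand the shared bases cannot be assigned, and the part they have in the values of the members was not tested.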
